A study of Mus musculus with 18 samples.

Results

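The response of MHCII+CD11c+ synovial macrophages to circulating immune complexes (IC) was read from bulk RNA-seq of sorted cells. It rested on 6 of the 18 libraries of the experiment, the 3 labelled as CD11c with IC and the 3 labelled as CD11c without treatment, and was described over the 10550 expressed genes that could be tested. All of the mice were C57BL/6 and otherwise wild type, and the study's methods give both sexes and an age of 8 to 20 weeks. IC were ovalbumin, carrying a fluorescent dye, bound by rabbit polyclonal antiserum against ovalbumin, and were injected intravenously 8 h before the cells were taken. The other group was untreated, not injected with a vehicle or with ovalbumin alone, so the injection, the antigen and the complex cannot be told apart in this comparison. The cells of a library came from a pool of 3 mice, 6 legs in all, so a replicate here is a pool. The remaining 12 libraries held MHCII+CD11c- and LYVE1+CX3CR1+ macrophages under the same treatments, with 3 libraries a group, and shared the estimate of the spread in the fit.

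Macrophages bind IgG complexes through Fc gamma receptors, most of which signal through the common gamma chain and the kinase Syk, while Fcgr2b inhibits. Such signals, like those of pattern receptors, are known to induce chemokines, interferon-stimulated genes and secreted mediators. Myeloid cells that make much secreted protein load the endoplasmic reticulum (ER), and the unfolded protein response then raises chaperones such as the one encoded by *Hspa5*. Cells positive for MHC class II and CD11c carry the machinery that presents antigen to T cells.

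The values are in CPM, each gene's count relative to the library's total as scaled with edgeR's TMM factors, and 3 values in a row follow the replicate numbers 1 to 3. Untreated libraries held 1981823, 1589668 and 2172358 counts and libraries with IC 671244, 1306815 and 1614423, so replicate 1 with IC was the shallowest and 3 counts in it were worth 4.63 CPM, against 1.45 CPM in the deepest. Both transcripts of the sort were present. *Itgax*, which encodes CD11c (chromosome 7, 128129526 to 128150657), stood at 304, 239.95 and 265 CPM without treatment and 383, 273 and 357 with IC. *H2-Ab1*, a class II beta chain (chromosome 17, 34263227 to 34269418), stood at 6629.7, 7030.3 and 7825 and 6539, 5525 and 6952 CPM. Neither passed the test of a change (log2 fold change 0.32, SE 0.34, adjusted p = 0.875 and log2 fold change -0.18, SE 0.16, adjusted p = 0.836). The 14 core macrophage markers summed to 14209 to 14919.5 CPM without treatment and 14465 to 15024 with IC, and the 17 markers of conventional dendritic cells to 1469 to 1593 and 1362 to 1467 CPM. These sums hide opposite moves of members. In 5 core markers all libraries with IC stood above all untreated ones, and in 1, *Lyz2*, the largest part of the sum, below. Of 14 dendritic cell markers tested, 1 stood above and 3 below, against 8.51% and 9.94% of all genes tested. Of the T and NK cell markers 4 of 14, *Cd3e* among them, had no count in any of the 6 libraries. The Y-linked genes *Ddx3y*, *Uty*, *Kdm5d* and *Eif2s3y* also had no count in any of the 6, while *Xist* lay between 312 and 530.5 CPM. Transcripts of male cells were thus not detected in these 6 libraries, although the study's methods give both sexes.

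A library without treatment stood apart by transcripts of other blood cells. Replicate 1 held 183 counts of *Mpo* and 50 of *Elane*, granule genes of immature granulocytes, where the other 5 libraries held at most 3 and 0. Its 7 erythroid markers summed to 1338 CPM, against 364 and 109 in the other untreated libraries and 412, 24.4 and 33.5 with IC. Untreated replicate 3 stood apart by muscle transcripts. Its 12 muscle markers summed to 258 CPM, against 17.9 and 41.4 in untreated replicates 1 and 2 and 33.9, 20.4 and 7.92 with IC. Because of the blood cell transcripts, neutrophil, monocyte, mast cell and histone genes are also given without untreated replicate 1. In bulk RNA, fewer cells of a type and less RNA per cell cannot be told apart, and this holds for every level below.

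With IC, 71 of the 10550 genes passed an adjusted p of 0.05 by the quasi-likelihood test of edgeR, adjusted after Benjamini and Hochberg, 0.673% of those tested. Of these, 51 rose (0.483%) and 20 fell (0.19%). The rises were the larger changes, with 44 of the 51 at a log2 fold change of at least 1, against 12 of the 20 falls at -1 or below. In 70 of the 71 the 3 libraries with IC did not overlap the 3 untreated ones, a separation that 1947 genes (18.5%) showed in either direction, 898 upwards (8.51%) and 1049 downwards (9.94%). The exception was *Cx3cr1*. The median log2 fold change of all genes tested was -0.01, so that the changes below are relative to a centre near 0. At an unadjusted p of 0.05, 1000 of the 10550 genes passed, in either direction. Counts of list members below are to be read beside these shares of all genes.

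**Figure D1:**
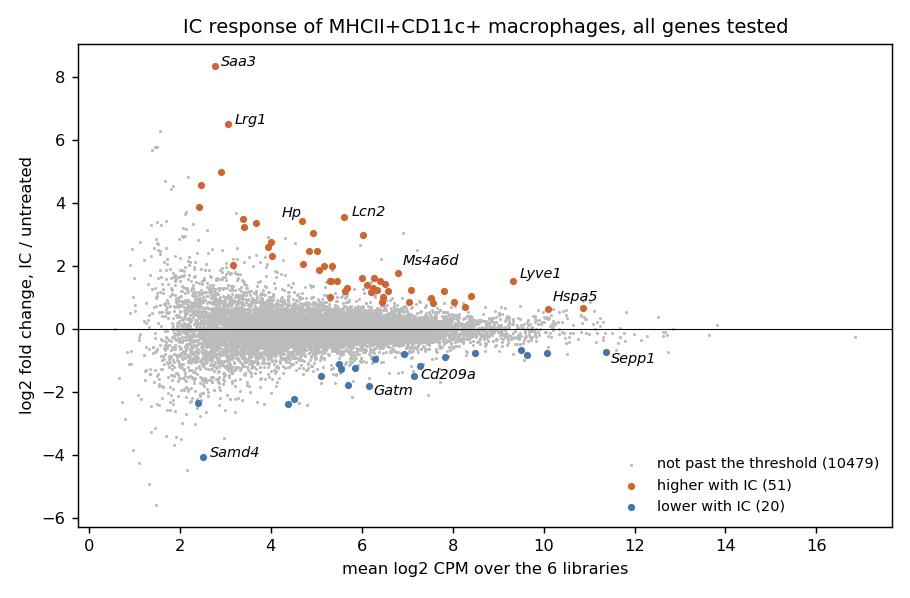
Mean log2 CPM over the 6 libraries (x axis) and log2 fold change of IC over untreated (y axis) for each of the 10550 genes tested, with the 51 genes that rose in orange and the 20 that fell in blue. The rises reach 8.35 for *Saa3* and 6.51 for *Lrg1*, and the falls -4.06 for *Samd4*. Called genes with a mean level over the 6 libraries above 1000 CPM, such as *Sepp1*, changed by less than 1.

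The calls depended on single libraries more than the directions did. Without 1 library at a time, 63, 14 and 20 genes were called when untreated replicate 1, 2 or 3 was left out and 50, 39 and 17 when replicate 1, 2 or 3 with IC was left out. The sign of each of the 71 log2 fold changes was the same in every one of these fits and in all other alternatives run. In all 6 of these fits, 11 genes kept the call, among them *Saa3*, *Lrg1*, *Hp*, *Irg1*, *Vcan*, *Bst1*, *Clec4e*, *Ms4a6d*, *Msr1* and *Fcgr1*. Each of the other 60 lost it in at least 1. No such fit called *Ly6i*, *Plac8*, *Layn*, *Cp*, *Oas1a*, *Osm*, *Hsp90ab1*, *Mpeg1*, *Akap11*, *Hist1h3g* or *Samd4*.

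Upstream sequences are shown for called genes of the ER chaperone and interferon groups, because members of each group are known to share a control element and are described as groups below. They are the 250 bases before the RefSeq start of each gene in GRCm38.p6, written 5′ to 3′ on the gene's strand. For the ER chaperones the letters searched, on both strands, were those of the ER stress element, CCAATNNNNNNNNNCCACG, which 0.113% of 32851 such windows of the genome's genes held. They were found in 8 of the 26 list members with a window, among them both called ones, where capitals mark the match: *Hspa5* (chr2:34771840-34772089, plus strand), with the match starting 65 bases before the gene, and *Pdia6* (chr12:17266339-17266588, plus strand), with the match starting 98 bases before it.
Hspa5: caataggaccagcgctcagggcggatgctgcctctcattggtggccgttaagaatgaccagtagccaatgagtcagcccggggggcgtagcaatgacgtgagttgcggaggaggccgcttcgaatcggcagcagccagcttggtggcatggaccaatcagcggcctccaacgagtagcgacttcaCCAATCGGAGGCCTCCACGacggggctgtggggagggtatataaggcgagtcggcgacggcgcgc
Pdia6: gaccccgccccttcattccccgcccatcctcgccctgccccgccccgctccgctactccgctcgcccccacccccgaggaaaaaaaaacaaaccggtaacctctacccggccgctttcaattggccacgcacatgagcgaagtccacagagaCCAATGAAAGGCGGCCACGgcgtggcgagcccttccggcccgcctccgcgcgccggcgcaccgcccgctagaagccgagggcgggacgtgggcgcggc

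For the interferon group the letters were GAAA, any 2 bases and GAAA again, part of the interferon response element, held by 2.98% of the same windows on either strand and by 22 of the 38 list members with a window. Of the called members, *Oas1a* (chr5:120907526-120907775, minus strand) had 2 overlapping matches, starting 20 and 14 bases before the gene, and *Rsad2* (chr12:26456453-26456702, minus strand) had 1 on the opposite strand, 120 bases before it; capitals mark them. The window of *Irf7* held none of these letters in this form, and *Dhx58* and *Ifi204* had no window in the reference table. The windows of *Oas1a* and *Irf7* end at starts that lie inside the spans given for these genes below, so that part of each window, more of it for *Irf7*, is within the span. A match is a description of these letters and not of a bound factor.
Oas1a: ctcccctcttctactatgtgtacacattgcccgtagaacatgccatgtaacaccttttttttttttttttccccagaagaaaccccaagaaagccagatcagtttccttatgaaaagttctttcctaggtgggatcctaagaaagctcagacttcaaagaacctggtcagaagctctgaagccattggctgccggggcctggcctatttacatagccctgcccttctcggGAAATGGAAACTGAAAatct
Rsad2: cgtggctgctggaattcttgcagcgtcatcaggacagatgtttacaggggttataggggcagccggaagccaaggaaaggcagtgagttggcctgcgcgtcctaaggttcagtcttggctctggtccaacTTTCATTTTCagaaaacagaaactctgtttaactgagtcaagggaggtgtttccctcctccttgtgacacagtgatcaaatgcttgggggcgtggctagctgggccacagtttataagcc

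The rises with the highest fitted log2 fold changes were those of *Saa3*, *Lrg1*, *Spon1*, *Chil1* and *Ly6i*. *Saa3*, an acute-phase serum amyloid A (chromosome 7, 46711998 to 46719615), had no count in the 3 untreated libraries and 24.7, 41.7 and 24.4 CPM with IC, which is at least 56.1-fold higher when the untreated group is set to a floor of 3 counts over its 3 libraries. *Lrg1*, a secreted leucine-rich glycoprotein (chromosome 17, 56119678 to 56121946), went from 0.525, 0 and 0.482 to 18.5, 58.99 and 43.9 CPM. With only 2 untreated counts its ratio of 123 has a 95% counting interval of 33.4 to 1022. Both genes were at or under 1 count in each untreated library and above 10 in each library with IC. The matrix protein gene *Spon1* (ratio 35.1, interval 13.3 to 132), the chitinase-like *Chil1* (28.8, 9.37 to 144) and *Ly6i* (15.8, 5.73 to 60.8) were likewise at 3 counts or fewer in each untreated library. Adjusted p was 0.00430 for *Saa3*, 4.15e-05 for *Lrg1*, 0.00937 for *Spon1*, 0.0152 for *Chil1* and 0.0442 for *Ly6i*. These intervals cover counting error only, and *Saa3* and *Ly6i* have close paralogs, between which the counting may have split reads.

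*Irg1* (also called *Acod1*), whose enzyme makes itaconate, rose from 12.1, 4.602 and 13.99 to 61.7, 92.02 and 105 CPM (log2 fold change 3.05, SE 0.49, adjusted p = 0.00195). *Hp*, haptoglobin, which binds haemoglobin, rose from 14.2, 1.31 and 8.68 to 57.1, 92.02 and 117 CPM (log2 fold change 3.42, SE 0.51, adjusted p = 9.99e-04). Every library with IC held more than 4 times the level of the highest untreated library in both genes. *Lcn2*, lipocalin 2, which binds bacterial siderophores, stood at 34.7, 0.657 and 18.8 CPM untreated and 147, 197 and 305 with IC (log2 fold change 3.54, SE 0.71, adjusted p = 0.0152). *Hdc*, histidine decarboxylase, which makes histamine, rose from 7.88, 1.97 and 7.72 to 18.5, 41.7 and 48.7 CPM (log2 fold change 2.61, SE 0.58, adjusted p = 0.0294). The untreated levels of these genes varied widely between libraries, and untreated replicate 2 was the lowest in all 4.

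**Figure D2:**
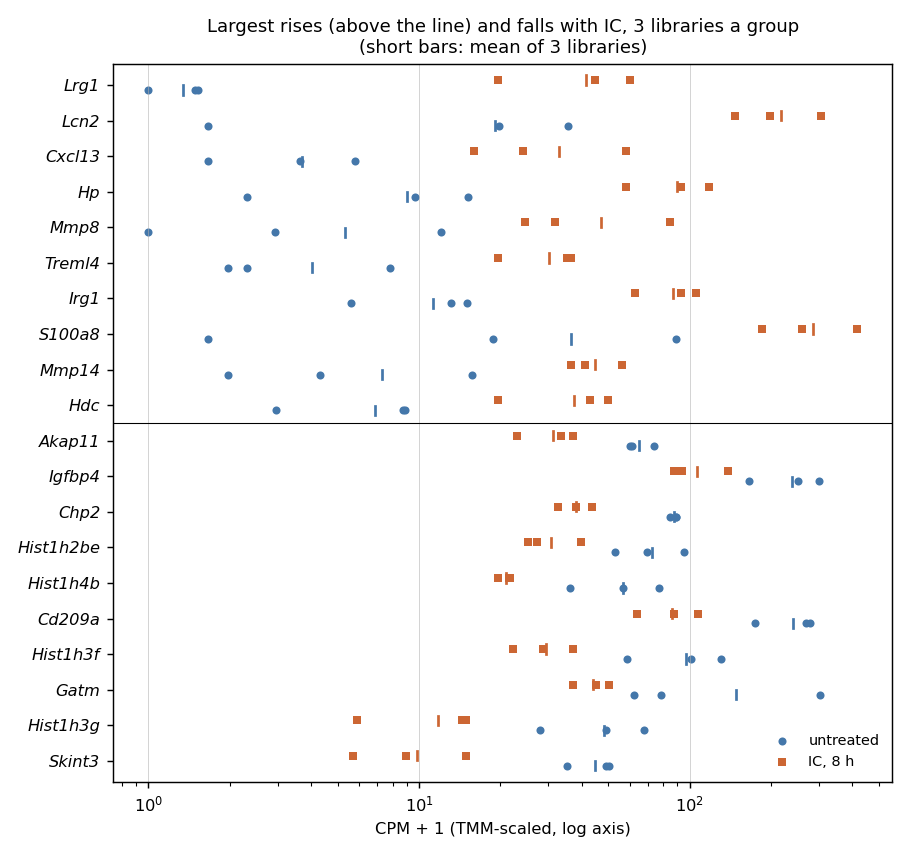
CPM + 1 on a log axis (x) in each of the 3 untreated libraries (blue circles) and 3 libraries with IC (orange squares), with short bars for the group means, for the 10 largest rises and the 10 largest falls among called genes whose groups are separate and whose log2 CPM averages 3 or more. *Lcn2* runs from 0.657 to 34.7 CPM without IC and from 147 to 305 with it, and *Gatm* is spread by 1 untreated library at 303 CPM.

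Among Fc gamma receptors and their signalling genes, 2 of 18 rose and 0 fell in edgeR's test, with a list median of 0.22; at an unadjusted p of 0.05 7 passed upwards and 0 downwards, and DESeq2 called 5 higher, with *Fcgr1*, *Fcgr2b* and, named for that call alone, *Fcgr4* and *Fcer1g* among them. *Fcgr1*, the high-affinity IgG receptor (chromosome 3, 96282909 to 96293969), rose from 51.5, 47.99 and 54.98 to 133, 108 and 129.8 CPM (log2 fold change 1.25, SE 0.21, adjusted p = 0.00336). Its libraries were tightly grouped on both sides and far apart. The inhibitory receptor *Fcgr2b* stood at 399, 463 and 453 CPM untreated and 696, 569 and 600.1 with IC, without overlap, but did not pass (log2 fold change 0.50, SE 0.16, adjusted p = 0.189). *Fcgr3*, an activating receptor, stood at 553, 546 and 462 and 549, 462 and 472 CPM (log2 fold change -0.08, SE 0.14, adjusted p = 0.954). The kinase gene *Syk* (log2 fold change -0.08, SE 0.17) and the IgG recycling receptor *Fcgrt* (0.02, SE 0.17) were also not called. Reads of *Fcgr2b*, *Fcgr3* and *Fcgr4*, which lie side by side and resemble each other, may have been split between them.

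Interferon-stimulated genes had mostly positive log2 fold changes, and few passed the test. Of 51 tested, 5 rose and 0 fell, 46 had a positive log2 fold change, and the median was 0.62, beside -0.01 for all genes. In 26 of the 51 all libraries with IC stood above all untreated ones, against 8.51% of all genes tested. *Rsad2*, viperin (chromosome 12, 26442743 to 26456452), rose from 31.00, 9.204 and 13.99 to 38.6, 95.2 and 65.8 CPM (log2 fold change 1.89, SE 0.36, adjusted p = 0.0136). *Dhx58*, which encodes the RNA sensor LGP2, rose from 29.9, 21.7 and 23.1 to 72.5, 66.9 and 75.5 CPM (log2 fold change 1.52, SE 0.30, adjusted p = 0.0140). *Irf7*, the transcription factor of the type I interferon loop (chromosome 7, 141263183 to 141266499), rose from 56.7, 49.3 and 58.8 to 139, 178 and 126 CPM (log2 fold change 1.42, SE 0.29, adjusted p = 0.0171). Replicate 2 with IC was the highest library for *Rsad2* and *Irf7*, and all untreated levels of *Irf7* and *Dhx58* lay within a narrow range.

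*Oas1a*, an antiviral oligoadenylate synthase (chromosome 5, 120896256 to 120907544), rose from 68.3, 49.3 and 71.4 to 133, 191 and 115 CPM (log2 fold change 1.21, SE 0.29, adjusted p = 0.0471). *Ifi204*, a DNA-binding member of the interferon-inducible HIN family, rose from 139, 122 and 167 to 219, 265 and 278 CPM (log2 fold change 0.83, SE 0.18, adjusted p = 0.0294). Each was called in some leave-one-out fits at most, *Oas1a* in none of the 6 and *Ifi204* in 1. Abundant members mostly did not pass. *Irf1*, a factor that interferon gamma induces, stood lower with IC, at 448, 594 and 556 and then 309, 351 and 334 CPM (log2 fold change -0.68, SE 0.18, adjusted p = 0.0909). *Ly6e* stood at 431, 454 and 366 and 430.4, 561 and 426 CPM (log2 fold change 0.18, SE 0.19). DESeq2 called 12 members higher and 1, *Irf1*, lower, and without untreated replicate 1 edgeR called 3. *Oas1a* and *Ifi204* belong to families of near-identical genes, for which reads may have been split.

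In the ER chaperone and unfolded protein response list, 2 of 31 genes rose, 0 fell and the median was 0.17. All 3 libraries with IC stood above the untreated range in 9 of the 31, against 8.51% of all genes tested. *Hspa5*, the ER chaperone BiP (chromosome 2, 34772090 to 34776529), rose from 978, 776 and 885 to 1504, 1313 and 1321 CPM (log2 fold change 0.65, SE 0.15, adjusted p = 0.0442). *Pdia6*, a protein disulfide isomerase (chromosome 12, 17266589 to 17284785), rose from 237, 165 and 183 to 358, 367 and 336 CPM (log2 fold change 0.85, SE 0.16, adjusted p = 0.00937). Those are the 2 genes whose upstream bases are printed above. Of the chaperones of the highest level, *Calr* (log2 fold change 0.55, SE 0.15, adjusted p = 0.0971) and *Hsp90b1* (0.62, SE 0.18, adjusted p = 0.125) stood higher without passing. *Canx* differed by no more than its SE (0.16, SE 0.16, adjusted p = 0.874). *Pdia3*, another disulfide isomerase, stood at 0.34 (SE 0.14, adjusted p = 0.414). DESeq2 called 4 members higher, *Calr* and *Hsp90b1* besides the same pair.

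Cytosolic heat shock chaperones showed the same direction, with 1 of 18 called higher, 0 lower, 12 above their untreated range in all libraries with IC and a median of 0.50. Over all genes tested, 0.483% were called higher and 8.51% stood above their untreated range in this way. *Hsp90ab1*, the constitutive HSP90, rose from 1508, 1418 and 1525 to 2471, 2341 and 2319.8 CPM (log2 fold change 0.68, SE 0.15, adjusted p = 0.0280), a change of narrow spread that no leave-one-out fit called. *Hspa8* stood at 3053, 2767 and 3065 and 4671, 4242 and 4186 CPM (log2 fold change 0.56, SE 0.15, adjusted p = 0.0820) and *Hspa1a*, the inducible HSP70, at 1096, 1361 and 2283 and 3633, 2325 and 2702 CPM (log2 fold change 0.87, SE 0.26, adjusted p = 0.149). DESeq2 called 3 members higher, *Hsp90ab1*, *Hspa8* and *Hsp90aa1*, 9 passed an unadjusted p of 0.05 by edgeR, and without untreated replicate 1 edgeR called 0. The untreated libraries of *Hspa1a* ranged over more than 1000 CPM.

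**Figure D3:**
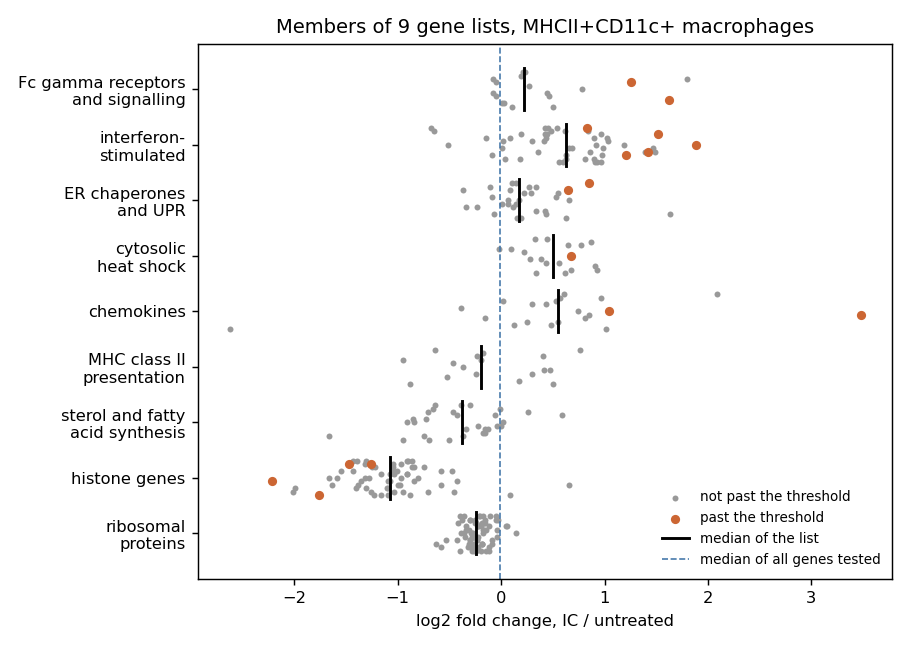
Log2 fold change of IC over untreated (x axis) for each tested member of 9 gene lists (y axis), with called members in orange, the rest in grey, the list median as a black bar and the median of all genes as a dashed line. Medians run from -1.08 for histone genes to 0.62 for interferon-stimulated genes, while most members of each list did not pass the threshold.

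Of 21 chemokines tested, 2 rose, 0 fell and the median was 0.55. *Cxcl13*, which attracts B cells (chromosome 5, 95956939 to 95961068), rose from 2.63, 0.657 and 4.82 to 23.1, 14.9 and 57.3 CPM (log2 fold change 3.48, SE 0.67, adjusted p = 0.0140). *Cxcl2*, which attracts neutrophils, rose from 277, 224 and 208 to 486, 398 and 577 CPM (log2 fold change 1.04, SE 0.21, adjusted p = 0.0140). The first was a low transcript in every untreated library and the second an abundant one. *Cxcl1*, another ligand of the neutrophil receptor CXCR2, stood at 30.5, 19.7 and 34.2 and 60.2, 40.9 and 50.6 CPM, apart in its 3 libraries but not called (log2 fold change 0.81, SE 0.46, adjusted p = 0.632). The chemokines of the highest level, *Ccl6* (0.57, SE 0.20) and *Ccl9* (0.60, SE 0.19), were not called either (adjusted p = 0.263 and 0.176).

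Cytokines and other mediators had 4 called rises among 28, 0 falls and a median of 0.31. The rises were *Saa3*, *Lcn2*, *S100a8* and *Osm*. *Osm*, oncostatin M, a cytokine of the interleukin-6 family, rose from 35.2, 38.8 and 22.7 to 72.5, 66.1 and 82.2 CPM (log2 fold change 1.20, SE 0.27, adjusted p = 0.0332). *Il1b* stood at 270.04, 335 and 401 CPM untreated and 457, 472 and 707 with IC (log2 fold change 0.71, SE 0.31, adjusted p = 0.468) and *Tnf* at 74.1, 124 and 127 and 167, 144 and 206 CPM (log2 fold change 0.67, SE 0.26, adjusted p = 0.329). Neither passed, although the libraries of each did not overlap. *Socs3* was among the most abundant members and stood at 1186, 1527 and 1334 and 999.6, 912 and 799.9 CPM (log2 fold change -0.58, SE 0.20, adjusted p = 0.241).

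Genes that mark neutrophils had the largest median of the lists with a tested member, 2.48 over 13 tested markers, of which 5 rose, 0 fell and 10 did not overlap upwards. Such a separation upwards was shown by 8.51% of all genes tested. *S100a8*, a calcium-binding alarmin (chromosome 3, 90669071 to 90670034), stood at 87.7, 0.657 and 17.8 CPM untreated and 184, 259.5 and 415 with IC (log2 fold change 3.0, SE 0.66, adjusted p = 0.0320). *Mmp8*, neutrophil collagenase, stood at 11.03, 0 and 1.93 and 30.9, 23.6 and 83.5 CPM (log2 fold change 3.37, SE 0.76, adjusted p = 0.0328). Untreated replicate 1 was the highest of its group and replicate 2 at or near 0 in both. The other called markers were *Lcn2*, given above, *Trem1*, a receptor that amplifies inflammation, at 14.2, 10.5 and 11.6 and 30.9, 70.00 and 97.5 CPM (log2 fold change 2.48, SE 0.48, adjusted p = 0.0136), and *Csf3r*, the G-CSF receptor, at 31.00, 15.8 and 23.1 and 43.2, 73.9 and 81.02 CPM (log2 fold change 1.52, SE 0.32, adjusted p = 0.0200). Without untreated replicate 1, 8 markers were called and the median was 3.38, with *S100a8* at 4.83 (adjusted p = 0.00113), *Lcn2* at 4.36 (adjusted p = 0.0121) and *Mmp8* at 5.32 (adjusted p = 0.00554). That library held the highest untreated level of these genes, so larger rises without it follow from leaving it out. Each of the 3 lost its call without untreated replicate 2, untreated replicate 3 or replicate 3 with IC. *S100a8* lost it without replicate 2 with IC too. DESeq2 called 3 of the markers, *Trem1*, *Csf3r* and, named here for that call alone, *Cxcr2*, but not *S100a8*, *Lcn2* or *Mmp8*. Summed over all 15 markers in the files, the levels were 881, 141 and 338 CPM without treatment and 1316, 1999 and 2938 with IC, and 0 of them lacked a count in all 6 libraries.

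Monocyte markers rose in part. Of 15 tested, 4 rose, 0 fell and the median was 1.19. These were *Hp*, *Treml4* at 6.83, 1.31 and 0.964 and 18.5, 35.4 and 34.1 CPM (log2 fold change 3.24, SE 0.76, adjusted p = 0.0447), *Plac8* at 13.1, 11.2 and 13.99 and 70.96, 73.1 and 71.9 CPM (log2 fold change 2.48, SE 0.57, adjusted p = 0.0379) and *Vcan*, the proteoglycan versican, at 11.03, 11.8 and 13.02 and 43.2, 45.6 and 60.9 CPM (log2 fold change 2.08, SE 0.27, adjusted p = 1.30e-04). Libraries of *Plac8* and *Vcan* were tightly grouped on both sides. *Vcan* did not mark monocytes alone in these data, as untreated LYVE1+CX3CR1+ macrophages held 517 ± 57.98 CPM of it (SD, n = 3). Defining monocyte genes were not called by edgeR: *Ly6c2*, singled out after its values were seen, stood at 4.73, 0.657 and 1.93 and 15.4, 13.4 and 15.2 CPM (log2 fold change 2.51, SE 0.81, adjusted p = 0.208), and *Ccr2*, the receptor that carries monocytes from blood, lower with IC, at 779, 778 and 770.1 and then 663, 554 and 468 CPM (log2 fold change -0.47, SE 0.24, adjusted p = 0.552). DESeq2 called 4 members, *Hp*, *Treml4* and *Vcan* but *Ly6c2* in place of *Plac8*. Without untreated replicate 1 edgeR also called 4, with *Treml4* at 4.62 (adjusted p = 0.0189) and *Hp* at 4.05 (adjusted p = 0.00113), while *Plac8*, at 2.50, was no longer called (adjusted p = 0.0968). Of the 6 leave-one-out fits, that was the only 1 in which *Treml4* kept its call. The summed markers overlapped, at 3311, 3948 and 3938 CPM untreated and 4006, 4592 and 3809.9 with IC. Most of each sum came from *F13a1*, *Nr4a1* and *Ccr2*. *F13a1* alone stood at 1370, 2037 and 1847 CPM untreated and 1922, 2470 and 1636 with IC. The sum therefore says little about the low-level markers, the called ones among them. Mast cell markers summed to 16.3, 88.1 and 63.7 and 64.8, 313 and 250.4 CPM, with *Hdc* the 1 called of 7 tested; without untreated replicate 1 it stood at 2.86 (adjusted p = 0.0529) and 0 of 8 tested were called. The part of other cells in the sorted gate in these rises, and in those of *Hp*, *Lcn2*, *Hdc*, *Chil1* and *Lrg1*, was not tested.

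**Figure D4:**
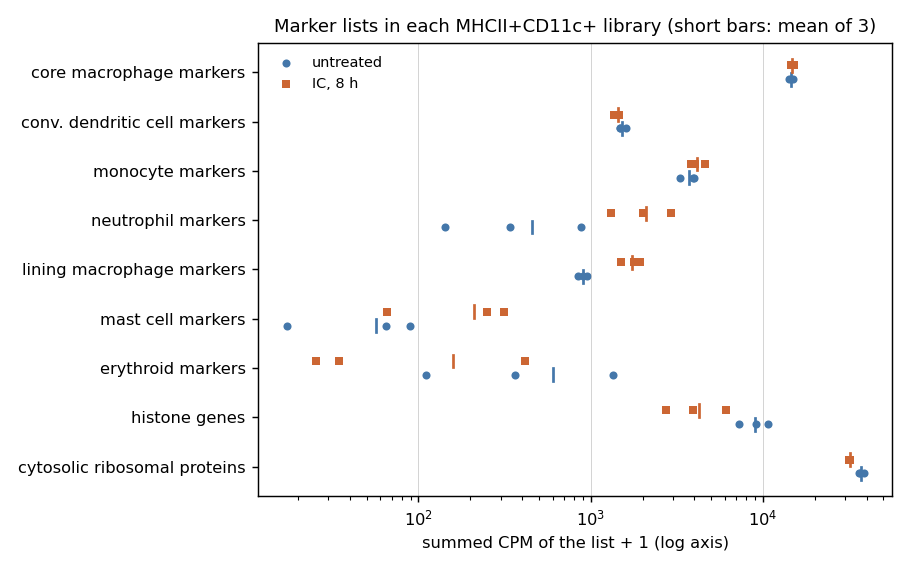
Summed CPM + 1 of 9 lists on a log axis (x) in each untreated library (blue circles) and each library with IC (orange squares), with short bars for the means of 3. Neutrophil markers lie at 141 to 881 CPM without IC and 1316 to 2938 with it, lining markers at 841 to 952 and 1498 to 1934, and core macrophage markers overlap.

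Genes known as markers of lining macrophages stood higher in the CD11c-sorted cells with IC. Of the 6 that the study names, 3 rose and 0 fell; this set was chosen after the rise of *Lyve1* had been seen. *Lyve1*, a hyaluronan receptor (chromosome 7, 110850607 to 110862953), rose from 365, 439 and 329 to 1001, 1054 and 1232 CPM (log2 fold change 1.54, SE 0.28, adjusted p = 0.00881). *Vsig4*, a complement receptor (chromosome X, 96247201 to 96293438), rose from 67.8, 46.7 and 34.7 to 102, 91.2 and 140.1 CPM (log2 fold change 1.17, SE 0.24, adjusted p = 0.0145). *Cx3cr1*, the fractalkine receptor (chromosome 9, 120048683 to 120068296), rose from 78.8, 57.9 and 61.7 to 74.04, 134 and 144 CPM (log2 fold change 0.85, SE 0.20, adjusted p = 0.0471), where replicate 1 with IC lay inside the untreated range. *Sparc* stood at 38.4, 55.2 and 37.1 and 75.6, 76.3 and 152 CPM (log2 fold change 1.26, SE 0.34, adjusted p = 0.101), *Timd4* at 22.6, 36.2 and 37.6 and 27.8, 47.98 and 34.7 CPM and *Folr2* at 332, 317 and 340.5 and 218, 377 and 232 CPM, the last pair with log2 fold changes of 0.23 (SE 0.33) and -0.25 (SE 0.17). In LYVE1+CX3CR1+ macrophages themselves *Lyve1* stood at 2372 ± 197 CPM untreated (SD, n = 3) and 3315 ± 209 with IC. The part of lining macrophages in the sorted gate was not tested. Nor was it tested for rises given elsewhere of genes whose untreated level was higher in LYVE1+CX3CR1+ macrophages, such as *Vcan*, *Itgb5*, *Layn* and *Clec5a*.

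Receptors for uptake and for microbial ligands included some of the steadiest rises. Among 25 scavenger and uptake receptors 3 rose, *Lyve1*, *Vsig4* and *Msr1*, and 1 fell, *Cd209a*. *Msr1*, scavenger receptor A, rose from 46.2, 44.7 and 39.1 to 179, 94.4 and 132 CPM (log2 fold change 1.62, SE 0.21, adjusted p = 1.30e-04). *Clec4e*, the lectin Mincle, which signals through the common gamma chain, rose from 24.2, 17.1 and 17.8 to 60.2, 84.9 and 90.2 CPM (log2 fold change 2.0, SE 0.31, adjusted p = 0.00117), and the lectin *Clec5a* from 26.3, 21.7 and 31.8 to 52.4, 47.98 and 63.4 CPM (log2 fold change 1.03, SE 0.21, adjusted p = 0.0152). *Msr1* and *Clec4e* kept the call in every fit run. *Cd209a*, a DC-SIGN homologue and a marker of dendritic cells, fell from 173, 269 and 277 to 86.4, 62.9 and 107 CPM (log2 fold change -1.48, SE 0.28, adjusted p = 0.0136). Of the other abundant receptors, *Mrc1* stood at 1593, 1949.9 and 1694 and 2089, 2483 and 1931 CPM (log2 fold change 0.31, SE 0.17) and *Cd163* at 548, 1213 and 1144 and 1206, 1464 and 1155 CPM (0.40, SE 0.28).

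In the Ms4a family of membrane proteins, 2 of 8 tested genes rose and 0 fell. *Ms4a6d* rose from 58.3, 59.8 and 59.3 to 249.9, 215 and 149 CPM (log2 fold change 1.77, SE 0.22, adjusted p = 6.48e-05) and *Ms4a6c* from 70.4, 78.9 and 115 to 196, 237 and 196 CPM (log2 fold change 1.25, SE 0.22, adjusted p = 0.00430). The 3 untreated libraries of *Ms4a6d* differed by less than 2 CPM. Their relative *Ms4a6b* stood at 36.8, 72.97 and 44.8 and 111, 93.6 and 70.7 CPM (log2 fold change 0.82, SE 0.27, adjusted p = 0.208), and reads of these near-identical neighbours on chromosome 19 may have been split. *Bst1*, the surface enzyme CD157, rose from 18.9, 23.01 and 10.6 to 66.3, 62.9 and 78.6 CPM (log2 fold change 2.01, SE 0.30, adjusted p = 9.99e-04) and *Ceacam1*, an adhesion molecule, from 48.3, 47.3 and 32.8 to 165, 71.6 and 107 CPM (log2 fold change 1.39, SE 0.32, adjusted p = 0.0357).

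Matrix-degrading enzymes had 3 rises among 15 tested genes, *Mmp8*, *Mmp14* and *Mmp19*, and 0 falls. *Mmp14*, a membrane-bound metalloproteinase, rose from 14.7, 3.29 and 0.964 to 40.1, 35.4 and 55.4 CPM (log2 fold change 2.78, SE 0.58, adjusted p = 0.0181), and without untreated replicate 1, the highest of its group, the log2 fold change was 4.41 (adjusted p = 0.00113). Of the 6 leave-one-out fits 3 kept its call. It was lost without untreated replicate 2, untreated replicate 3 or replicate 3 with IC. *Mmp19* (chromosome 10, 128790910 to 128800827) rose from 163, 163 and 133 to 369, 512 and 179.7 CPM (log2 fold change 1.20, SE 0.26, adjusted p = 0.0259). Replicate 3 with IC was close to the untreated range of *Mmp19*. Other matrix and adhesion genes that rose were *Plod1*, a lysyl hydroxylase of collagen, from 125, 80.9 and 85.4 to 169.7, 171 and 191 CPM (log2 fold change 0.87, SE 0.19, adjusted p = 0.0294), *Sdc4*, syndecan 4, from 126, 137 and 125 to 268, 231 and 279 CPM (log2 fold change 1.0, SE 0.20, adjusted p = 0.0140), and *Itgb5*, an integrin chain, from 58.3, 44.05 and 40.99 to 137, 88.1 and 129 CPM (log2 fold change 1.29, SE 0.26, adjusted p = 0.0152). *Layn*, a hyaluronan receptor, was low throughout, at 3.15, 5.26 and 2.41 and 15.4, 12.6 and 16.4 CPM (log2 fold change 2.05, SE 0.46, adjusted p = 0.0320).

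Among lipid export genes, *Nr1h3*, which encodes the liver X receptor alpha, rose from 13.1, 7.23 and 1.45 to 49.4, 26.7 and 34.7 CPM (log2 fold change 2.31, SE 0.49, adjusted p = 0.0212), and the transporter gene *Abca9* fell from 456, 484 and 445 to 302, 259 and 269 CPM (log2 fold change -0.74, SE 0.15, adjusted p = 0.0140). They were the 2 called of 16. *Acp2*, a lysosomal acid phosphatase, rose from 70.9, 50.6 and 61.2 to 137, 113 and 121 CPM (log2 fold change 1.01, SE 0.20, adjusted p = 0.0140), but its annotated span (chromosome 2, 91202812 to 91214098) overlaps the end of that of *Nr1h3* (chromosome 2, 91184061 to 91202829), so that reads of these 2 genes cannot be fully told apart where the strand setting is unknown. Of 19 iron and oxidative stress genes 3 rose: *Lcn2*, *Hmox1*, haem oxygenase 1, from 265, 215 and 249 to 330.1, 479 and 373 CPM (log2 fold change 0.70, SE 0.17, adjusted p = 0.0471), and *Cp*, ceruloplasmin, from 38.4, 28.9 and 30.4 to 67.9, 112 and 59.1 CPM (log2 fold change 1.29, SE 0.31, adjusted p = 0.0481). A further pair of called genes acts on growth and stress: *Mxd1*, a partner of MAX, rose from 37.3, 57.9 and 58.4 to 84.8, 167 and 182 CPM (log2 fold change 1.52, SE 0.34, adjusted p = 0.0320) and *Nupr1* from 27.3, 9.86 and 34.2 to 66.3, 68.4 and 74.3 CPM (log2 fold change 1.52, SE 0.30, adjusted p = 0.0140).

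The 20 falls were smaller and in part in abundant genes. *Sepp1*, selenoprotein P, fell from 3046, 3814 and 3324 to 1876, 2193 and 2157 CPM (log2 fold change -0.71, SE 0.14, adjusted p = 0.0140). *Kctd12* fell from 1536, 1336 and 1297 to 916, 789 and 782 CPM (log2 fold change -0.75, SE 0.15, adjusted p = 0.0140). *Btg2*, an antiproliferative early response gene, fell from 959.9, 1175 and 1062 to 594, 532 and 671 CPM (log2 fold change -0.83, SE 0.16, adjusted p = 0.00990). All libraries with IC lay below all untreated ones by a clear margin in each of these. *Mpeg1*, perforin 2, which attacks engulfed bacteria, fell from 832, 990.1 and 931 to 595, 645 and 504 CPM (log2 fold change -0.66, SE 0.16, adjusted p = 0.0471). *Fnbp1*, which shapes membranes in endocytosis, fell from 298, 305 and 327 to 184, 136 and 188 CPM (log2 fold change -0.88, SE 0.17, adjusted p = 0.0136). *Runx1*, a transcription factor of blood cells, fell from 133, 172 and 174 to 92.6, 77.1 and 105 CPM (log2 fold change -0.80, SE 0.18, adjusted p = 0.0366). Each of these log2 fold changes stayed above -1.

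Larger falls were in less abundant genes. *Samd4*, an RNA-binding protein gene, had 16.3, 14.5 and 14.5 CPM untreated and 0, 0 and 1.83 with IC, a ratio of 17.9 with a 95% counting interval of 5.92 to 88.7 (adjusted p = 0.0335). The calcium channel gene *Cacna1a* gave 5.44 (2.16 to 17.6, adjusted p = 0.0478). Both were at 3 counts or fewer in each library with IC. *Skint3* fell from 49.4, 47.99 and 34.2 to 13.9, 4.72 and 7.92 CPM (log2 fold change -2.39, SE 0.55, adjusted p = 0.0366) and *Igfbp4*, a binding protein of insulin-like growth factors, from 165, 301 and 249.8 to 86.4, 138 and 92.6 CPM (log2 fold change -1.16, SE 0.28, adjusted p = 0.0481). *Chp2* fell from 83.5, 88.1 and 88.3 to 37.02, 42.5 and 31.7 CPM (log2 fold change -1.23, SE 0.27, adjusted p = 0.0255) and the exchanger gene *Slc9a9* from 127, 97.95 and 96.4 to 52.4, 69.2 and 46.3 CPM (log2 fold change -0.93, SE 0.22, adjusted p = 0.0478). *Gatm*, an enzyme of creatine synthesis, went from 303, 61.1 and 77.2 to 49.4, 44.04 and 35.9 CPM (log2 fold change -1.80, SE 0.42, adjusted p = 0.0442). Untreated replicate 1 carried much of that fall: without it the log2 fold change of *Gatm* was -0.71 (adjusted p = 0.469).

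Replication-dependent histone genes stood lower as a group, which was looked at after the falls of some members had been seen. Of 63 tested, 4 fell and 0 rose, 2 had a positive log2 fold change, and the median was -1.08. In 36 of the 63 all libraries with IC stood below all untreated ones, against 9.94% of all genes tested. *Hist1h3g* fell from 66.7, 26.95 and 48.2 to 13.9, 13.4 and 4.87 CPM (log2 fold change -2.22, SE 0.52, adjusted p = 0.0447) and *Hist1h3f* from 129.8, 57.9 and 99.8 to 27.8, 36.2 and 21.3 CPM (log2 fold change -1.76, SE 0.38, adjusted p = 0.0251). Also called were *Hist1h4b*, from 76.2, 55.9 and 35.2 to 18.5, 20.4 and 20.7 CPM (log2 fold change -1.47, SE 0.35, adjusted p = 0.0468), and *Hist1h2be*, from 94.04, 68.4 and 52.1 to 26.2, 38.5 and 24.4 CPM (log2 fold change -1.26, SE 0.29, adjusted p = 0.0357). The most abundant pair of members, *Hist2h2aa1* and *Hist2h2aa2*, held the same counts in every library, at 1109, 1260.3 and 947 and 373, 859 and 457 CPM (log2 fold change -0.97, SE 0.31, adjusted p = 0.189), so that reads of identical copies were counted for each, and 8 of the 63 members shared their counts with another gene. Summed, the group stood at 10671, 9141 and 7214 CPM without treatment and 2744, 6134 and 3918 with IC. Without untreated replicate 1 the median was -0.92 and 0 members were called, while DESeq2 called 8 on all libraries. Genes of the cell cycle beyond the histones had a median of -0.31, with 0 of 34 called by edgeR and by DESeq2 alike and 1 at an unadjusted p of 0.05.

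Several groups had no called member. Among 17 class II presentation genes edgeR and DESeq2 each called 0, 2 higher and 5 lower genes passed an unadjusted p of 0.05, and the median was -0.20. *Cd74*, the invariant chain, stood at 12205, 13598 and 15398 and 12243, 10707 and 12978 CPM (log2 fold change -0.20, SE 0.42, adjusted p = 0.9605) and *H2-Aa*, the class II alpha chain, at 3811, 3950.4 and 4389 and 3306, 2759 and 3348 CPM (log2 fold change -0.37, SE 0.14, adjusted p = 0.321). In sterol and fatty acid synthesis 3 of 30 log2 fold changes were positive, with a median of -0.38, and edgeR called 0, 6 passed an unadjusted p of 0.05 downwards and DESeq2 called 1.

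Cytosolic ribosomal protein genes, followed as a sign of RNA composition, had 3 positive log2 fold changes among 76 and a median of -0.24; edgeR called 0, 13 passed an unadjusted p of 0.05 downwards, and DESeq2 called 1, *Rpl10*, named for that call alone. They summed to 35906, 36387 and 38355 CPM untreated and 32159.8, 31769 and 31571 with IC. The nuclear RNA *Malat1* stood at 7282, 9723 and 9393 and 5123, 4983 and 5784 CPM (log2 fold change -0.73, SE 0.22, adjusted p = 0.163) and *Neat1* at 277, 462 and 540.1 and 225, 196 and 297 CPM (log2 fold change -0.83, SE 0.25, adjusted p = 0.161). The ribosomal sums and *Malat1* were lower in every library with IC than in any untreated one, beside the lower histone genes, and the part of RNA composition in that was not tested. *Neat1* overlapped, and was called lower without untreated replicate 1. Of 7 receptors for nerve signals edgeR called 0, DESeq2 1 and an unadjusted p of 0.05 was passed by 1. This was *Ramp1*, part of the receptor for the neuropeptide CGRP (chromosome 1, 91179822 to 91225196), at 74.1, 55.9 and 76.2 and 30.9, 27.5 and 20.1 CPM (log2 fold change -1.42, SE 0.45, adjusted p = 0.191). Its partner *Calcrl* (chromosome 2, 84330626 to 84425405) stood at 23.6, 36.8 and 22.7 and 29.3, 55.8 and 29.9 CPM (log2 fold change 0.50, SE 0.29, adjusted p = 0.653).

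The response was set beside that of the other subsets through the same fit. Each subset had untreated libraries of its own, but the 71 genes were chosen on the MHCII+CD11c+ contrast, so their larger changes there are no finding. Of the 71, 69 had the same sign in MHCII+CD11c- and 65 in LYVE1+CX3CR1+ macrophages, and 29 and 8 were also called there, where 1.06% and 0.464% of all genes were called. The median size of their log2 fold changes was 1.52, against 1.16 and 0.62 in the other subsets. Among those called in MHCII+CD11c- macrophages too were *Mmp19*, where the log2 fold change was 1.54 (SE 0.33, adjusted p = 0.0183), *Irf7* (1.34, SE 0.32, adjusted p = 0.0355) and *Cd209a* (-1.68, SE 0.40, adjusted p = 0.0364). *Ms4a6d*, *Ms4a6c*, *Msr1*, *Fcgr1*, *Pdia6*, *Hspa5* and *Abca9* were called in all 3 subsets.

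A test of the difference between responses, the interaction in edgeR's fit, found 1 gene against each subset (0.00948% of those tested in each). *Vcan* (chromosome 13, 89655309 to 89743027) responded differently from LYVE1+CX3CR1+ macrophages, by 2.23 on the log2 scale (SE 0.33, adjusted p = 0.00501). It was abundant there before treatment, at 517 ± 57.98 CPM (SD, n = 3), and stood at 464 ± 85.8 with IC, while it rose from low levels in MHCII+CD11c+ macrophages. The part of lining macrophages in the sorted gate in this rise was not tested. *Akap11*, which anchors protein kinase A (chromosome 14, 78492246 to 78536980), fell from 59.4, 72.97 and 60.3 to 32.4, 36.2 and 21.9 CPM in MHCII+CD11c+ macrophages (log2 fold change -1.11, SE 0.26, adjusted p = 0.0475). In MHCII+CD11c- macrophages it rose from 26.5 ± 2.93 to 61.5 ± 12.5 CPM (log2 fold change 1.21, SE 0.30, adjusted p = 0.0426). The difference between these responses was -2.32 (SE 0.40, adjusted p = 0.0454), and without 1 of the 12 libraries compared it kept its sign throughout but its call only when replicate 2 with IC of either subset was left out (adjusted p of the others 0.0569 to 0.309). The call of *Akap11* was also lost with a block by pool of mice (adjusted p = 0.0605), with the replicate number as a block (0.0880) and with only the libraries compared (0.179). The difference for *Vcan* lost its call without replicate 3 of MHCII+CD11c+ with IC alone (adjusted p = 0.116). The next adjusted p was 0.684 against MHCII+CD11c- and 0.276 against LYVE1+CX3CR1+ macrophages, and 642 and 474 genes passed an unadjusted p of 0.05.

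**Figure D5:**
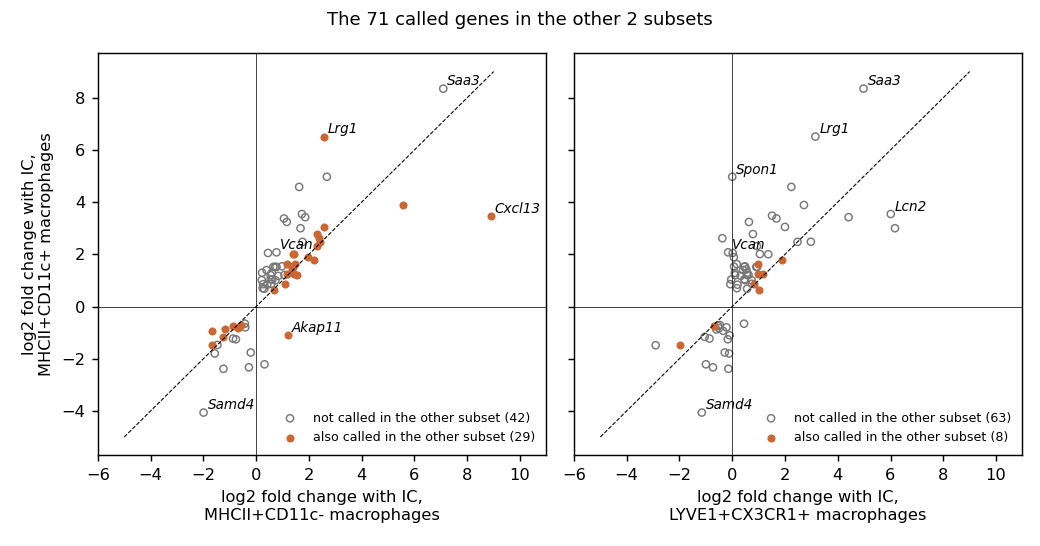
Log2 fold change with IC in MHCII+CD11c+ macrophages (y axis) against that in MHCII+CD11c- (left, x axis) and LYVE1+CX3CR1+ macrophages (right, x axis) for the 71 genes called in the first, with genes also called in the other subset filled (29 left, 8 right) and the line of equal change dashed. *Akap11* lies below 0 on one axis and at 1.21 on the other, and *Vcan* at 2.08 in MHCII+CD11c+ and -0.16 in LYVE1+CX3CR1+ macrophages.

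The gene groups are given side by side for the 3 subsets as medians of the log2 fold change, with no test of their differences. Interferon-stimulated genes had 0.62 in MHCII+CD11c+, 0.47 in MHCII+CD11c- and 0.29 in LYVE1+CX3CR1+ macrophages. ER chaperones had 0.17, 0.26 and 0.29, with 2, 3 and 3 members called higher. Class II presentation genes had -0.20, -0.63 and -0.01, with 5 called lower in MHCII+CD11c- macrophages and 0 in the other two subsets. Histone genes had -1.08, -0.46 and -0.57. Neutrophil markers had 2.48, 1.05 and 2.48, with 0 called in either of the other subsets. The last of these medians rested on low levels. In LYVE1+CX3CR1+ macrophages *Trem1* averaged 0.897 ± 1.55 CPM untreated and 6.09 ± 3.59 with IC (SD, n = 3). *S100a8* averaged 0 and 6.69 ± 10.2 CPM there, against 35.4 and 286 CPM in MHCII+CD11c+ macrophages.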

How the data were processed

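Bulk RNA-seq was made from 3 sorted subsets of synovial macrophages, with and without IC, as 6 groups of 3 libraries, with a stranded total RNA kit and paired-end reads. The authors trimmed 3 bases from read 1, used Trim Galore and FastQC, aligned to mm10 with HISAT2 and deposited raw counts per gene from featureCounts, as far as the study's methods and the submitters' processing notes tell. Tool versions, the strand setting, the treatment of multiply mapped reads and the annotation were not given in the sources used here. A combined table of the same series was not used, and 0 columns of other samples were met.

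From the counts, edgeR 4.0.16 in R 4.3.3 fitted all 18 libraries (TMM scaling, filterByExpr with a minimum count of 10 and a minimum total of 15, quasi-likelihood test, Benjamini-Hochberg adjustment over the 10550 genes tested, threshold 0.05). Each SE was taken as the absolute log2 fold change over the root of its F statistic. Levels are TMM-scaled CPM. Scripts were tested on simulated data. Coordinates and upstream bases are those of RefSeq for GRCm38.p6. Alternatives used DESeq2 1.42.0 and sva 3.50.0, with limma 3.58.1 loaded by edgeR. The members and gene lists were chosen with earlier results of these data known, and the histone and lining lists after values were seen. Genes were named where they passed the threshold, where the study names them for IC, or as up to 4 abundant list members that did not pass; any other is said to be singled out. Same-numbered untreated and IC libraries of MHCII+CD11c+ macrophages did not deviate together, with correlations of 0.011, -0.0008 and -0.027, so the numbers were not treated as pairs. Within a group, replicates are separate pools of mice as far as the study's methods tell. The p-values of the IC response measure the spread between libraries within a group, estimated over all 18 libraries and not these pools alone. Same-numbered libraries of the subsets under the same treatment were probably sorted from the same pool, while the main fit counts all 18 as independent. The main test of the difference between responses has no term for that, and a block by pool of mice was run as an alternative. Some results that passed a test are not reported here.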

Additional observations from a re-analysis of the deposited data

Results flagged for a closer look

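In the main fit the IC response of 2 genes differed between subsets by a test of the difference itself, the interaction term of edgeR's quasi-likelihood fit. For *Akap11* the response of MHCII+CD11c+ macrophages minus that of MHCII+CD11c- macrophages was -2.32 on the log2 scale (SE 0.40, adjusted p = 0.0454), with a fall in the first and a rise in the second. For *Vcan* the response of MHCII+CD11c+ macrophages minus that of LYVE1+CX3CR1+ macrophages was 2.23 (SE 0.33, adjusted p = 0.00501), with a rise in the first and a log2 fold change near 0 in the second. The call of *Vcan* was lost without replicate 3 of MHCII+CD11c+ with IC (adjusted p = 0.116). No group had the 4 libraries needed to test for a library far from the others.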

How the results depend on the processing

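The 71 calls became 77 with DESeq2's size factors, 63 with at least 10 counts in every library, 250 of 17957 genes without the filter, 170 with only the 6 libraries of the comparison, 157 with DESeq2 and 133 with 1 surrogate variable, and ranged from 14 to 63 without 1 library each. Of the calls, 71.8% were rises, against 61.2% with only the 6 libraries. In alternatives chosen after seeing the data there were 70 calls without *Rn45s* and 45 with the 6 libraries thinned to the smallest total. The replicate block gave 79, of which 65 were shared, and 0 and 1 for the differences from MHCII+CD11c- and LYVE1+CX3CR1+ macrophages; a block by pool of mice gave 2 and 2, of which 0 and 1 were shared with the main result, so that *Akap11* was not among them. Those differences, 1 gene each, became 29 and 27 without the filter, 0 and 4 with only the libraries compared and 1 and 11 with DESeq2, and ranged from 0 to 1 without 1 library each; the cause was not tested. Of 1165 values for single genes, 855 kept their side of the threshold, 305 lost the call, 5 gained it and 0 reversed. In the shallowest MHCII+CD11c+ library 3 counts are 4.63 CPM, and lower levels were not resolved there. Replicates 1 and 2 of MHCII+CD11c- macrophages with IC were shallower, at 381217 and 245903 counts. In these 3 counts are 7.84 and 11.3 CPM, and lower levels were likewise not resolved.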
